A study of Mus musculus with 4 samples.

Results

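Conventional CD4 effector T cells were examined among the live CD45+ leukocytes sorted from intracranial CT2a tumors, a transplantable mouse glioma model, 14 days after implantation. Both groups were adult female C57Bl/6 mice of matched age, either CaMKK2 WT or CaMKK2 KO in every tissue, with the same tumor in both and no further treatment named in the labels. CaMKK2 is a kinase activated by calcium and calmodulin. The leukocytes of 4 mice per genotype carried 1 hashtag antibody per mouse and were pooled on 1 10x channel per genotype, so genotype and channel cannot be told apart.

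The cells were selected on their measured UMIs. Each had at least 500 detected genes, under 10% mitochondrial UMIs, at least 2 UMIs of Cd3d, Cd3e and Trac together, at least 1 Cd4 UMI, under 2 UMIs of Tcf7, Lef1 and S1pr1 together and under 30 UMIs of the C1q genes, with none of Ncr1, Foxp3, Cd8a or Cd8b1. The gate held 224 of 13960 deposited barcodes and 224 of 1912 T cells, 27 of them in the WT library and 197 in the KO library. HTODemux gave 204 of the 224 to 1 mouse (25 WT and 179 KO cells), while 19 carried 2 or more hashtags and 1 carried none. The other T cells were split by the same genes into 762 CD8, 180 Treg and 109 CD4 stem cells (at least 2 UMIs of Tcf7, Lef1 and S1pr1), with 637 in no gate.

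CD4 effector cells recognise peptides on MHC class II and act largely through what they make. The CD40 ligand (Cd40lg) licenses dendritic cells, macrophages and B cells, interferon gamma (Ifng) activates macrophages and raises antigen presentation, and other members of the TNF family costimulate neighbouring lymphocytes. Regulatory T cells (Treg) share the CD4 coreceptor and many activation receptors with them, and are set apart by the transcription factor Foxp3.

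In every KO mouse the effector cells were a larger share of the T cells than in any WT mouse. They made up 0 of 44, 7 of 205, 9 of 245 and 9 of 234 T cells in WT mice 1 to 4, or 0%, 3.41%, 3.67% and 3.85%. In KO mice 1 to 4 they were 29 of 253, 65 of 265, 54 of 366 and 31 of 164, or 11.5%, 24.5%, 14.8% and 18.9%. The highest WT mouse had an exact (Clopper-Pearson) 95% interval of 1.77% to 7.18% and the lowest KO mouse one of 7.81% to 16.05%, which covers counting error only. For the 0 of 44 in WT mouse 1 a floor of 3 cells is 6.82%, and the exact interval ends at 8.04%, above the lower bound of KO mouse 1. The mean was 2.73% ± 1.83 in WT and 17.4% ± 5.64 in KO mice (SD, n = 4 each), a difference of 14.7 percentage points and a ratio of 6.37 (p = 0.0286 by exact permutation over mice, two-sided, the smallest that 4 against 4 mice allow; adjusted over the 8 shares compared, p = 0.0762). The gate was proposed with these data known, so that p is not independent evidence.

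The shift was also seen within the CD4+ T cells. Of the effector, Treg and CD4 stem cells together, the effector cells were 0%, 18.9%, 31.0% and 24.3% in WT mice 1 to 4 and 50.0%, 52.4%, 44.6% and 53.4% in KO mice 1 to 4, without overlap (18.6% ± 13.3 against 50.1% ± 3.94, SD, exact permutation p = 0.0286, adjusted over the 8 shares p = 0.0762, n = 4 each). The shares of the other gates overlapped between the genotypes. CD8 cells were 46.2% of T cells in WT and 31.8% in KO mice (exact permutation p = 0.229, n = 4 each), Treg cells 10.6% and 8.78% (p = 0.657) and CD4 stem cells 2.66% and 8.34% (p = 0.143), and T cells in all were 12.5% and 16.9% of the barcodes (p = 0.314). WT mouse 1 lowered that WT mean: T cells were 3.96% of its barcodes, against 14.1%, 16.7% and 15.2% in WT mice 2 to 4. In KO mice 1 to 4 they were 18.0%, 14.7%, 21.7% and 13.2%. Fewer cells of 1 type and more of another cannot be told apart from shares.

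**Figure D1:**
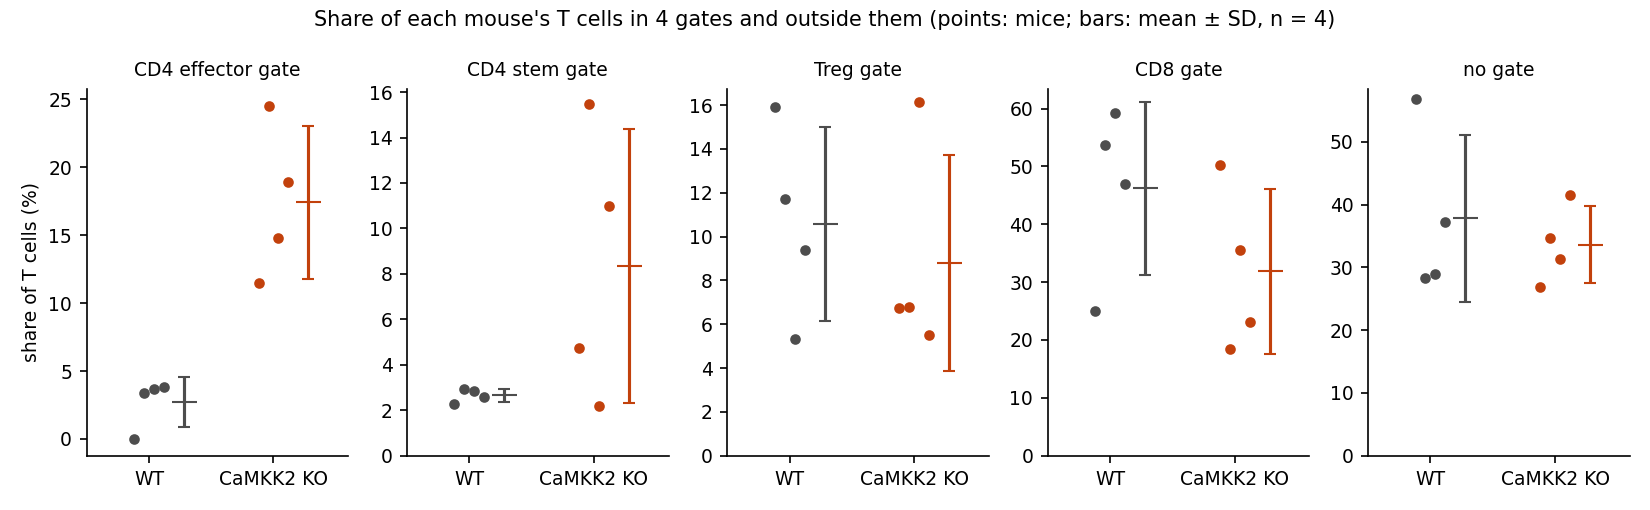
Percent of T cells in the CD4 effector gate, the CD4 stem, Treg and CD8 gates and in no gate, 1 panel each, with 1 point per mouse and the mean and SD per genotype (n = 4 each). The effector share lies between 11.5% and 24.5% in the KO mice and at or below 3.85% in the WT mice, while the other panels overlap.

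The share depends on sparse UMIs, so the cells next to each limit were counted. Among the 204 cells 58 had a single Cd4 UMI (12 of 25 WT and 46 of 179 KO cells), and 161 otherwise alike cells had none and fell outside (39 WT and 122 KO). A single UMI of Tcf7, Lef1 and S1pr1 was held by 55 members, and 24 cells with 2 fell outside. A further 41 cells (13 WT and 28 KO) were kept out by 1 Foxp3 UMI and 24 by 1 UMI of Cd8a and Cd8b1. The highest C1q sum in a member was 12. Members had a median of 4489 UMIs in WT and 7021 in KO mice (other T cells, 8971 and 9481). With T cells thinned to 4000 UMIs and the gate applied again, the difference was 17.1 percentage points. T cells below that depth were left out, which kept 33, 184, 213 and 214 T cells of WT mice 1 to 4 and 230, 241, 320 and 136 of KO mice 1 to 4. With all T cells and at least 2 Cd4 UMIs the difference was 11.6 (exact permutation p = 0.0286 for both, 4 mice per genotype). A Cd4 UMI was rare in NK and B cells, which should lack the gene, at 0 of 468 WT and 6 of 594 KO NK cells (1.01%), at median depths of 9495.5 and 6918 UMIs, and 0 of 152 and 1 of 167 B cells. In T cells with a Cd8a or Cd8b1 UMI, most of which should lack it too, it was found in 25 of 464 WT (5.39%) and 62 of 454 KO cells (13.7%), at median depths of 10438.5 and 12050.5 UMIs. That rate was higher in the KO library, as the effector share was, and its part in the share was not tested.

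The label was then checked against the markers proposed for these cells, Cd4, Cd40lg, Tnfsf8, Ccl1, Ifng and Tbc1d4. Levels are given as CPM, the UMIs of a gene scaled to all UMIs summed over a mouse's cells of 1 gate. WT mouse 1 had no effector cell, so 3 WT and 4 KO mice have values. A single UMI was worth 32.4, 24.5 and 23.5 CPM in WT mice 2 to 4 but at most 4.99 CPM in a KO mouse, since the summed members held 30817 to 42621 UMIs per WT mouse and 200206 to 769655 per KO mouse. These genes were proposed with the data known, so their levels are a description.

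Cd40lg stood at 0, 196 and 46.9 CPM in WT mice 2 to 4 and at 79.9, 58.5, 61.7 and 70.3 CPM in KO mice 1 to 4. The KO mice lay close together and the WT mice did not, where 7 of the 8 UMIs of WT mouse 3 came from 1 cell. The other gates had mean levels of at most 3.13 CPM in Treg and 1.36 CPM in CD8 cells of either genotype, while CD4 stem cells had 19.6 CPM in WT and 72.9 CPM in KO mice.

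Tnfsf8, the ligand of CD30, stood at 97.3, 196 and 46.9 CPM in WT and 165, 93.5, 118 and 176 CPM in KO mice, with the groups overlapping. Treg cells had 0 and 1.604 CPM and CD8 cells 8.65 and 4.48 CPM in WT and KO mice, and CD4 stem cells 425 and 267 CPM. Tbc1d4, a Rab GTPase-activating protein of glucose transporter traffic, was at 0, 97.8 and 93.9 CPM in WT and 145, 80.6, 121 and 167 CPM in KO mice.

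Ifng stood at 227, 2763 and 93.9 CPM in WT mice 2 to 4 and at 329.7, 960.2, 992 and 834 CPM in KO mice 1 to 4. The high WT value came from 1 cell with 110 of the 113 UMIs, without which that mouse had 99.3 CPM. Ifng UMIs were found in 13 of 29, 51 of 65, 21 of 54 and 16 of 31 cells of KO mice 1 to 4. Mean Ifng levels in Treg cells were 15.98 CPM in WT and 28.7 CPM in KO mice, and in CD8 cells 365 and 238 CPM.

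Ccl1, a chemokine for CCR8, was even more uneven. It stood at 32.4, 0 and 0 CPM in the WT mice and at 1249, 58.5, 856 and 522 CPM in KO mice 1 to 4. Of its UMIs 231 of 250 in KO mouse 1, 42 of 45 in KO mouse 2 and 100 of 119 in KO mouse 4 came from 1 cell each, whereas in KO mouse 3 the top cell held 116 of 347. Its level therefore describes few cells.

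**Figure D2:**
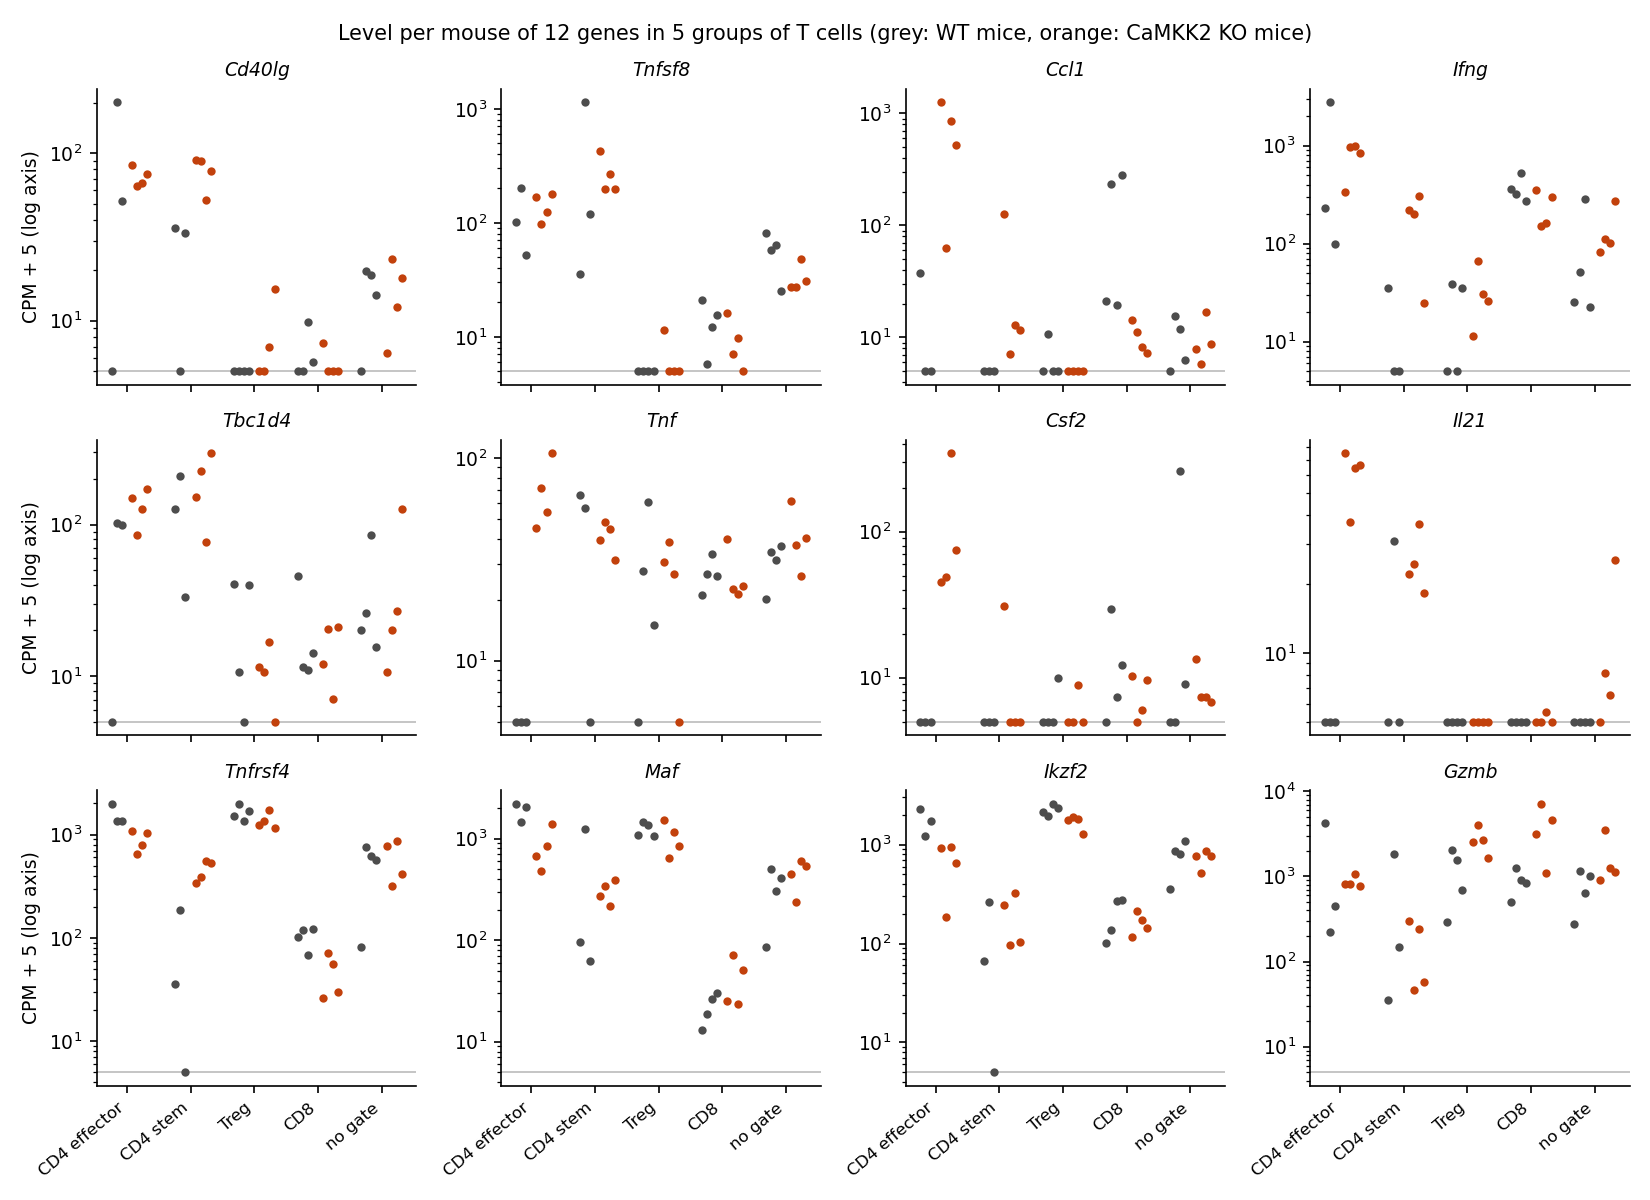
Levels of 12 genes (CPM + 5, log axis) in CD4 effector, CD4 stem, Treg, CD8 and ungated T cells, with 1 point per mouse and colors for genotype. Tnfsf8 and Cd40lg sit near the floor in Treg and CD8 cells, whereas Maf and Tnfrsf4 overlap between effector and Treg cells.

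The effector cells were then set beside the Treg cells of the same mice. Ikzf2 (Helios), a factor abundant in Treg cells, was at 2304, 1223 and 1713 CPM in the effector cells of WT mice 2 to 4, against 1958, 2588 and 2338 CPM in their Treg cells. In KO mice 1 to 4 it was at 909, 179, 935 and 649.8 CPM against 1770.5, 1878, 1815 and 1277 CPM. WT mouse 2 lay above its own Treg cells, and the other 6 mice lay below theirs. Tnfrsf4 (OX40) in WT effector cells, at 1551 ± 343 CPM (SD, n = 3), stood beside 1629 ± 273 CPM in WT Treg cells (n = 4), and in KO mice at 885 ± 203 CPM beside 1364 ± 245 CPM (n = 4 each). Bhlhe40, a factor of cytokine-producing T cells, was at 397 ± 134 CPM in WT effector and 109 ± 34.0 CPM in WT Treg cells. Treg cells in which no Foxp3 UMI was caught would meet the gate, and how many of the 25 WT cells they are was not tested.

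Marker lists of other cells were summed over the members. The macrophage list, of which 15 of 15 genes had a UMI and Cd74 was the most abundant, summed to 1719.8, 2568 and 2698 CPM in the WT mice and to 1439, 4699.5, 1315 and 1475 CPM in the KO mice, against 73314 CPM in WT and 77342 CPM in KO C1q-high cells. The other T cells of the same mice had a mean of 2112 CPM in WT and 6442 CPM in KO mice. In KO mouse 2 a single effector cell held 610 of the 1624 Cd74 UMIs. The NK cell list, led by Klrd1, summed to 75.4 ± 62.2 CPM in WT (SD, n = 3) and 453 ± 177 CPM in KO effector cells (n = 4), with Ncr1 at 0 through the gate. Klrd1 itself, a lectin receptor of NK and activated T cells, stood at 67.5 ± 68.7 and 427 ± 178 CPM, which missed the threshold (edgeR adjusted p = 0.0811). A Klrd1 UMI was found in 1 of 7, 4 of 9 and 1 of 9 cells of WT mice 2 to 4. In KO mice 1 to 4 it was found in 11 of 29, 41 of 65, 13 of 54 and 16 of 31 cells. Over the whole NK cell list the other T cells of the same mice had 714 CPM in WT and 600 CPM in KO mice. The gamma-delta list summed to 0 and 19.9 CPM with Trdv4 and Sox13 at 0, the B cell list to 0 and 4.18 CPM with Ms4a1 and Pax5 at 0, the glia, neuron and tumor list to 64.7 and 68.3 CPM with Gfap, Snap25 and Sox2 at 0, and the dendritic cell list to 10.8 and 95.1 CPM, most of it Fscn1 of KO mouse 4 with 62 UMIs in 1 cell. The part of these in the results below was not tested. The 2 libraries share 42 barcodes, and 3 members have one of them.

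Against the other T cells of the same 7 mice, the effector cells had more mRNA of costimulatory receptors and follicular helper genes, and less of granzymes and of the cell cycle. The number of genes called in the follicular helper, cell cycle, TNF family ligand and cytokine lists depended on the tool, and that of the cell cycle list on the mice used. Of 9202 genes tested (edgeR, mouse as a block, at least 100 UMIs), 384 were higher (4.17%) and 376 lower (4.09%) at an adjusted p under 0.05. The 14 gate genes were left out. The scaling decided the balance: with TMM the split was 215 higher (2.34%) and 485 lower (5.27%), and the median over all genes moved from 0.06 to -0.08 on the log2 scale. DESeq2 called 169 higher (1.84%) and 242 lower (2.63%), and limma, with equal weight per cell, 105 (1.14%) and 214 (2.33%). Without KO mouse 3, 494 genes in place of 760 were called. In the 4 KO mice alone, all of which had at least 10 effector cells, 235 of 8364 genes were higher (2.81%) and 200 lower (2.39%).

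Among genes higher in all 7 mice, Maf, a factor that drives IL-10 and IL-21, stood at 1294 ± 668 CPM (SD, n = 7) against 259 ± 76.9 CPM in the other T cells (log2 fold change 2.12 ± 0.19 SE, edgeR adjusted p = 9.25e-11). Il10 itself, the suppressive cytokine, was at 136 ± 104 against 23.5 ± 17.9 CPM (2.25 ± 0.29, adjusted p = 3.50e-07). Eea1, a tether of early endosomes, was at 515 ± 197 against 105 ± 19.2 CPM (2.13, adjusted p = 4.03e-13). Angptl2, a secreted angiopoietin-like protein, gave the largest change that was alike in every mouse, at 61.7 ± 29.3 against 8.26 ± 4.66 CPM (2.68 ± 0.33, adjusted p = 7.88e-08). Spry1, an inhibitor of growth factor signals (log2 1.89), Ptprs, a receptor phosphatase (1.73), Cystm1 (2.29), Ccn4 (2.08), Ypel2 (1.91) and Slc37a2 (1.78) completed the 10 largest.

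Among calls alike in every mouse, the 10 largest decreases were genes of other lymphocytes, or genes with no UMI in the members. Trdc, the constant segment of the delta receptor chain, was at 1.07 against 56.1 CPM (log2 -5.87) and Gzmf, a granzyme whose reads may be shared with near-identical family members, at 15.0 against 566 CPM (-4.93). Cd163l1, a marker of gamma-delta T cells, had no UMI in the members and 235 in the other T cells, a level of at most 0.131-fold. Dapl1, Id3, Cdh1, Klra1, Gm44175, Ppp2r2c and Bend4 had no UMI either. Gm44175 lies between Cd8b1 and Cd8a on chromosome 6, and the gate left out cells with a UMI of either. Its absence is therefore not independent of the gate. The calls of Cd163l1, Id3, Klra1 and Ppp2r2c were lost with DESeq2, and that of Cd163l1 also without the mouse block.

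Ligands and cytokines were next taken as lists. Of 10 TNF family ligands tested 7 were higher and none lower (median log2 1.10, all genes 0.06), against 4 with TMM, 3 with DESeq2 and 2 with limma (limma median 0.36). Besides Cd40lg and Tnfsf8 they held Tnfsf11 (RANKL, the osteoclast and dendritic cell factor; log2 1.83), Lta (1.44), Tnfsf14 (LIGHT; 1.25, adjusted p = 0.0475) and Tnf. Tnf, at 36.6 ± 39.2 against 27.2 ± 6.60 CPM, was called (0.96, adjusted p = 0.0242) though it was higher in only 3 of 7 mice. No WT effector cell had a Tnf UMI. Of 13 cytokines and chemokines 8 were higher and 2 lower (median 1.49), or 7 and 2 with TMM and 2 and 1 with both DESeq2 and limma. Il21, the helper cytokine for B cells, was at 31.9 against 2.60 CPM (3.84, adjusted p = 2.27e-08), Csf1, the macrophage growth factor, at 102 against 41.4 CPM (1.597) and Ccl3 at 480.1 against 187 CPM (1.49). The lower ones were Xcl1, the lymphotactin of CD8 and NK cells, at 30.5 against 119 CPM (-1.61), and Ccl5 (-0.63).

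Among receptors, 8 of 11 costimulatory receptors were higher and none lower (median log2 1.05), and 6 or 7 were with the other tools. Tnfrsf4 was at 1170.4 ± 432 against 367 ± 98.3 CPM (1.59, adjusted p = 1.04e-09) and Icos at 935 ± 402 against 326 ± 50.0 CPM (1.38, adjusted p = 4.97e-08), both higher in 7 of 7 mice. Of 12 checkpoint genes 7 were higher (Cd200, Btla, Ctla4, Vsir, Havcr2, Lag3 and Tox) and 2 lower (Cd244a and Cd160, receptors of NK and CD8 cells), with 4 higher under TMM and DESeq2 and 5 under limma. The T cell receptor signal list, which holds early response genes, had 8 of 16 higher and 1 lower (median 0.62; 5 higher with TMM and DESeq2, 3 with limma), among them Nfkbid (1.24), Nr4a3 (1.18) and Rel (1.15).

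The lineage lists were compared next. The follicular helper list had 7 of 9 higher and none lower (median log2 1.29; Il21, Maf, Cd200, Icos, Btla, Izumo1r and Sh2d1a; 6 with TMM, 5 with DESeq2 and 3 with limma), yet Bcl6, its defining factor, was at 9.02 ± 10.96 against 7.24 ± 5.64 CPM (-0.06, adjusted p = 0.994). The Th1 list had 6 of 17 higher (Ifng, Il12rb2, Il18rap, Bhlhe40, Stat4 and Il18r1) and 3 lower (Ly6c2, Runx3 and Ccl5), with a median of 0.38, and 3 higher and 4 lower under TMM. Tbx21 (T-bet) was at 62.5 ± 34.2 against 52.3 ± 10.9 CPM (0.47, adjusted p = 0.236). Of 4 Th2 genes Areg, Ccr8 (1.69) and Gata3 (118 against 61.5 CPM, 0.86) were higher, though in the KO mice alone and with DESeq2 1 of 4 was, and with limma none. Of 6 Th17 genes Ccr6, Rora and Ahr were higher while Il17a, with no UMI in the members against a mean of 10.975 CPM, and Tmem176a were lower, and the list's median of 0.11 turned to -0.01 under TMM. The Treg list, with Foxp3 left out as a gate gene, had 9 of 14 higher (Il10, Ccr8, Tnfrsf4, Nt5e, Itgb8, Tnfrsf18, Ctla4, Ikzf2 and Il2ra) and 1 lower (Itgae), with a median of 1.02. The number higher was 7 with TMM, 6 with DESeq2, 5 with limma and 4 in the KO mice alone. The members of this list overlap with the costimulatory and checkpoint lists.

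Counted cell by cell without thinning, Tbx21 gave a UMI in 6 of 25 WT and 71 of 179 KO effector cells, Gata3 in 10 and 79 and Bcl6 in 1 and 13. Of the 71 KO cells with Tbx21, 63 also held Cxcr6 and 46 Ifng. Cd40lg and Ifng were found together in 3 of 25 WT and 45 of 179 KO cells. The WT cells were shallower, so these shares are not a comparison of genotypes.

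The lists that stood lower were cytolysis and the cell cycle. Of 13 cytolysis genes 8 were lower (Gzmf, Gzmg, Gzmc, Gzmd, Gzma, Gzmk, Gzmb and Ctsw) and 1, the granule proteoglycan Srgn, was higher (median log2 -0.99), with 5 lower under DESeq2 and limma. Of 4 NK cell genes 3 were lower as well (Klra7, Eomes and Klrd1, median -1.63), and 1 with DESeq2. Of 2 gamma-delta genes 2 were lower (Trdc and Trgv2, median -3.47). The part of such cells in the cytolysis values was not tested. Gzma was at 85.6 ± 73.0 against 476 ± 726 CPM (-1.79, adjusted p = 7.86e-04). Of 12 cell cycle genes 9 were lower and none higher (median -1.26), with Mki67 at 106 ± 86.9 against 213 ± 73.0 CPM (-0.90, adjusted p = 0.0138) and Cdk1 at -1.72. In the KO mice alone 1 of the 12 cell cycle genes was lower, and with limma 3 were. None of 15 interferon response genes was called (median -0.12), nor any of 9 Camkk2 and calcium kinase genes (0.17). Glycolysis genes had 1 of 16 higher, and their median of 0.05 and that of the stem list of 0.08 (1 higher and 3 lower of 9) turned to -0.12 and -0.07 under TMM. Of 10 macrophage genes 8 were lower (median -1.72), and 4 with limma (median -0.95). The same limit on C1q UMIs applied to the members and to the other T cells. The macrophage list summed to a mean of 2329 CPM in WT effector cells beside 2112 CPM in WT other T cells. In KO mice it summed to 2232 CPM beside 6442 CPM.

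Against Treg cells, Ifng, Bhlhe40, Cxcr6 and Havcr2 were higher in the effector cells, and Il2ra, Ctla4 and Ikzf2 were lower. Of 4477 genes tested in the 7 mice 77 were higher (1.72%) and 69 lower (1.54%). TMM called 72 higher (1.61%) and 77 lower (1.72%), DESeq2 62 (1.38%) and 55 (1.23%) and limma 27 (0.603%) and 25 (0.558%). Leaving out KO mouse 2 gave 73 calls and leaving out KO mouse 3 gave 65, in place of 146. In the 3 KO mice with at least 10 cells of each class, 94 of 3405 genes were higher (2.76%) and 99 lower (2.91%). Foxp3 set the groups apart by the gate and was not tested.

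Apart from the markers above, Bhlhe40 was at 457 ± 101 against 113 ± 44.1 CPM (SD, n = 7, log2 2.08 ± 0.21 SE, edgeR adjusted p = 8.44e-06), higher in 7 of 7 mice. Havcr2 (TIM-3), an inhibitory receptor, was at 197 ± 91.1 against 60.9 ± 35.4 CPM (1.81, adjusted p = 3.10e-04), and Cxcr6, the receptor for CXCL16, at 489 ± 182 against 163 ± 143 CPM (1.66, adjusted p = 0.00162). Both were higher in every mouse. Rgs16, a brake on G protein signals, was at 326 against 61.0 CPM (2.29). Spry1 (2.33), Lilr4b (2.16), Ptprs (2.10), Cd9 (1.99) and Arap2 (1.90) were the other genes of the 10 largest besides Tnfsf8 and Ifng.

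On the lower side, Il2ra (CD25), the IL-2 receptor chain by which Treg cells take up IL-2, was at 326 ± 208 against 823 ± 224 CPM (log2 -1.42, edgeR adjusted p = 1.99e-04), lower in 7 of 7 mice. Ctla4, an inhibitory receptor, was at 951 ± 336 against 1459 ± 189.7 CPM (-0.72, adjusted p = 0.0330) and Ikzf2 at 1130.4 ± 701 against 1946 ± 422 CPM (-1.06, adjusted p = 0.0417, lower in 6 of 7). Klrg1, an inhibitory lectin, was at 45.8 against 192 CPM (-2.27), Ikzf4 (Eos) at 39.1 against 138 CPM (-1.67) and the chemokine receptor Ccr2 at 214 against 565 CPM (-1.53). Among calls alike in every mouse, Ncoa7, Igsf23, Gm2a, Fgl2, 1600014C10Rik, Gbp3 and Vrk1 were the others of the 10 largest, between -1.90 and -1.43. Outside that limit, Mt2 was called at -2.36 and H2ac8 at -1.92.

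By list, 6 of 17 Th1 genes were higher than in Treg cells (Ifng, Il18rap, Bhlhe40, Cxcr6, Id2 and Nkg7), with a median log2 of 0.80 against 0.01 for all genes. Of 9 cytokines 5 were higher and of 7 TNF family ligands 3, with none lower in either, and limma called 2 higher in each. Of 8 checkpoint genes 4 were higher (Havcr2, Cd200, Pdcd1 and Lag3) and Ctla4 lower (median 0.83), while limma called 1 higher and none lower. Of 12 Treg genes 5 were lower (Klrg1, Ikzf4, Il2ra, Ikzf2 and Ctla4) and 1 higher, Nt5e, which makes adenosine (median -0.86). With TMM and DESeq2 5 were lower and with limma 3, and none of these called Nt5e higher. In the 3 KO mice with at least 10 cells of each class 8 of 10 were lower and none higher (median -1.35), and the costimulatory list, with 1 higher and 1 lower of 11 in all mice, had 1 higher and 7 lower. Tnfrsf4 was lower in 7 of 7 mice without passing the test (1170.4 ± 432 against 1496 ± 301 CPM, -0.43, adjusted p = 0.192). Lists that set the effector cells apart from the other T cells did so less here. Of 6 follicular helper genes 2 were higher (Sh2d1a and Cd200, median 0.19), and Icos, Slamf6, Maf and Izumo1r were not called. Of 13 T cell receptor signal genes 1 was higher (Dusp2, median 0.64), and none of 11 cell cycle genes was called (median -1.04). The values of Maf (log2 0.03, adjusted p = 0.996) and Il10 (-0.14, adjusted p = 0.939) did not separate the classes. Of the interferon response genes Isg15 (log2 -0.82) and Bst2 (-0.79) were lower. Of 8 cytolysis genes Gzma and Nkg7 were higher and Gzmb lower, with a median of 0.78, and DESeq2 and limma called 1 in each direction. Klrd1, the 1 gene of the NK cell list tested, was higher too (log2 3.61), also with TMM, DESeq2 and limma (3.01). Its relation to the cytolysis values was not tested. Gzma was at 85.6 ± 73.0 against 23.5 ± 14.9 CPM (1.95, edgeR adjusted p = 0.0105, higher in 5 of 7 mice) and Nkg7, a granule membrane protein, at 1403 ± 485 against 847 ± 423 CPM (0.80, adjusted p = 0.0164, higher in 7 of 7). Gzmb was lower in 6 of 7 mice (1200.1 ± 1374 against 2157 ± 1041 CPM, -1.22), though 81 of the 131 Gzmb UMIs of WT mouse 2 came from 1 effector cell.

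Against CD8 cells 814 of 7810 genes were higher (10.4%) and 384 lower (4.92%), a split that became 451 higher (5.77%) and 635 lower (8.13%) under TMM as the median over all genes moved from 0.14 to -0.06. DESeq2 called 382 higher (4.89%) and 498 lower (6.38%), and limma 387 (4.96%) and 380 (4.87%). Without KO mouse 3, 736 genes were called in place of 1198. Tnfrsf4 was at 1170.4 ± 432 against 65.2 ± 38.3 CPM (log2 4.24 ± 0.21 SE, edgeR adjusted p = 1.99e-16) and Maf at 1294 ± 668 against 30.1 ± 18.8 CPM (5.36 ± 0.30, adjusted p = 3.55e-15). Il10 gave the largest change alike in all 7 mice, at 136 ± 104 against 0.877 ± 1.02 CPM (6.84 ± 0.44, adjusted p = 1.55e-13). Timp2, a protease inhibitor (4.33), Izumo1r (folate receptor 4, 4.30), Tiam1, a Rac activator (4.93), Ccn4 (3.98), Ecm1 (3.86), Podnl1 (3.38) and Tnfsf8 were the others of the 10 largest under that limit. Cd40lg, outside it, was called at 5.86. Among genes outside these, Rora, at 209 ± 32.2 against 24.3 ± 7.39 CPM (3.10), and Icos, at 935 ± 402 against 150.3 ± 55.98 CPM (2.58), were higher in 7 of 7 mice.

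All 6 follicular helper genes tested against CD8 cells were higher (median log2 3.44), as were 10 of 11 costimulatory receptors (1.54), 8 of 10 TNF family ligands (1.39) and 7 of 9 Treg genes (1.92), with none lower in these 4 lists. The TNF ligand count was 6 with TMM, 3 with DESeq2 and 2 with limma, whereas 7 Treg genes were higher with each of these tools. Follicular helper genes numbered 4 with limma, and costimulatory receptors 10 higher and 1 lower. Of 12 cell cycle genes 11 were lower (-1.32), or 7 with limma. Of 12 cytolysis genes 8 were lower and 1, Srgn, was higher (-1.24). Prf1, the pore-forming protein, was at 169 ± 197 against 421 ± 189.7 CPM (-1.18, edgeR adjusted p = 0.00552). Of 3 NK cell genes Eomes and Klrd1 were lower (median -1.62). The 10 largest decreases alike in every mouse held Gzmf (15.0 against 902 CPM, -5.77), Ly6c2 (45.5 against 916 CPM, -4.28), Cd244a (2.004 against 93.0 CPM, -4.01), Wdr95, Emid1, Mns1, H2bc14 and, with no UMI in the members, Cdh1, Gm44175 and Bend4. Gm44175 lies between Cd8b1 and Cd8a, the genes that split these 2 classes, so its change is not independent of the gates. The Th1 list did not keep its balance, with 7 higher and 4 lower of 17 here 3 higher and 6 lower under TMM and 1 higher under DESeq2 and limma. Of 14 interferon response genes 5 were higher, and of 11 checkpoint genes 4 were higher and 2 lower.

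**Figure D3:**
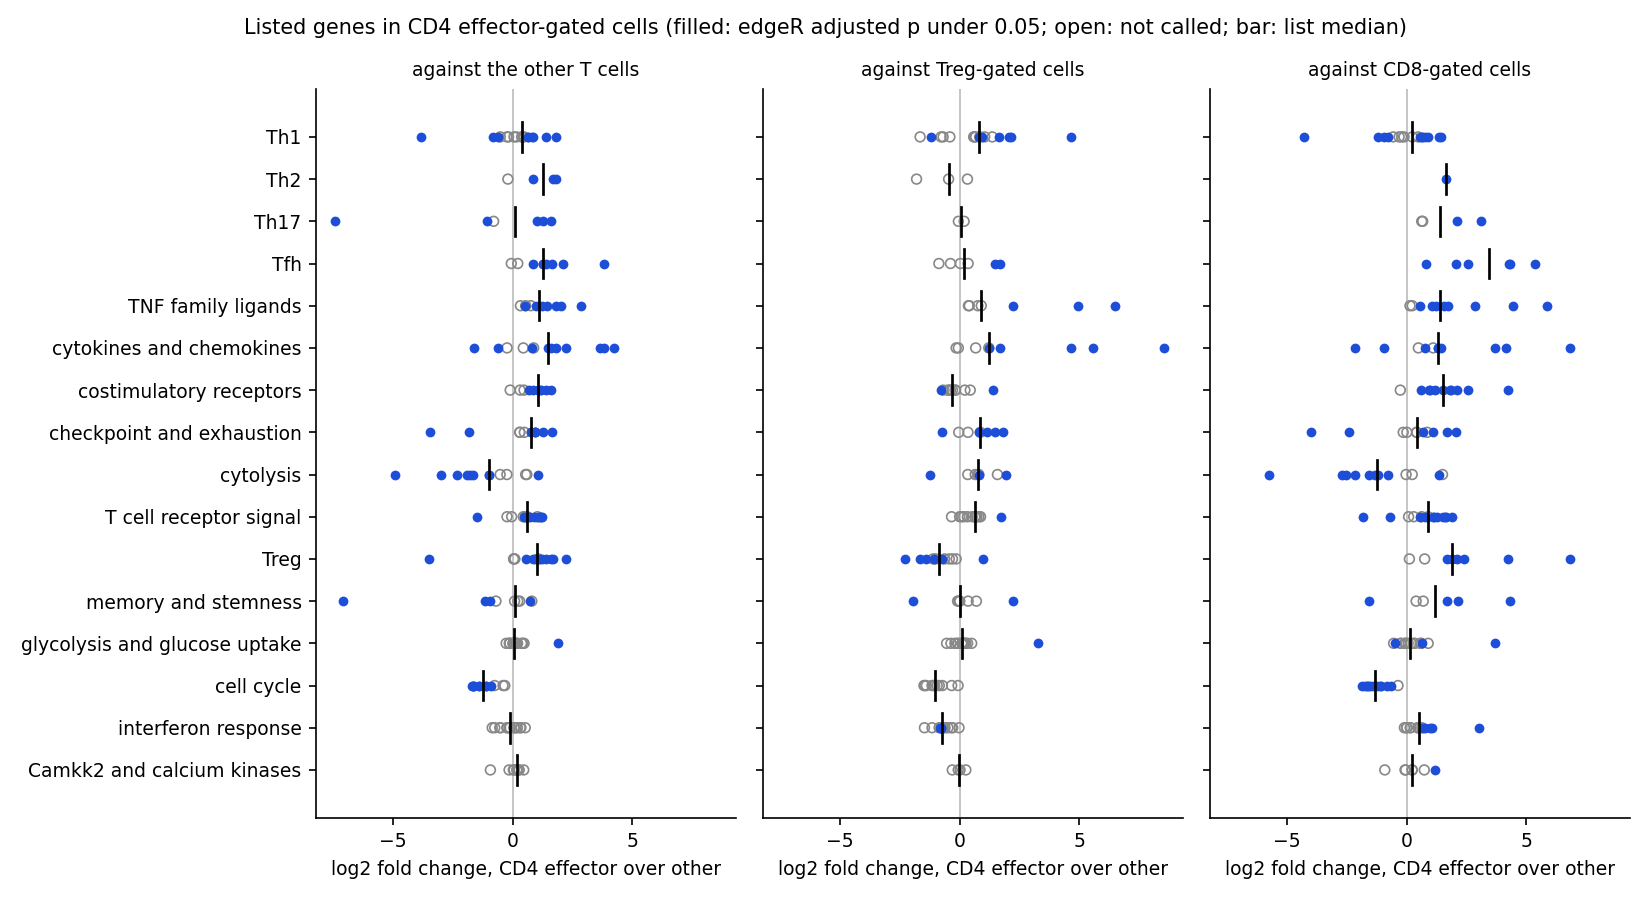
Log2 fold change of each tested member of 16 gene lists in CD4 effector cells against the other T cells, Treg cells and CD8 cells, with filled points called by edgeR at an adjusted p under 0.05 and a bar at the list's median. The Treg list lies to the right against CD8 cells (median 1.92) and to the left against Treg cells (-0.86). The median of the cell cycle list lies to the left in all 3, with none of its 11 tested genes called against Treg cells.

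A set of 39 genes was higher than in both Treg and CD8 cells, 50.6% of those higher than in Treg cells and 4.79% of those higher than in CD8 cells. The comparisons share the effector cells, so the overlap is a description. Besides the 5 markers, the 39 held the ligands and growth factors Csf2, Tnfsf11 and Csf1, the receptors Nrp1, Cd200 and Il18rap, the signal molecules Zap70, Cd247, Spry1, Ptprs and Sh2d1a, and Nrgn and Igfbp7. Nrgn, neurogranin, a calmodulin-binding protein best known from neurons, was at 0, 24.5 and 46.9 CPM in WT and 255, 157, 589.6 and 57.1 CPM in KO effector cells. In Treg cells it was at 0 CPM in all 4 WT and 3 of 4 KO mice. The 8 genes lower than in both were Actb, Ptma, Mt1, Mt2, Gzmb, Cmtm7, Fgl2 and H2ac8.

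The genotypes were compared within the effector cells over 3 WT and 4 KO mice. Camkk2 itself had no UMI in WT and 12 in KO effector cells, against 11.2 ± 3.74 CPM in WT and 7.09 ± 3.06 CPM in KO other T cells (SD, n = 4 each) and 28.6 ± 1.33 and 13.5 ± 3.11 CPM in C1q-high cells. Which part of the gene is deleted was not given in the sources used here, and reads from the 3' end need not cover it, so these UMIs check no label. Of 2727 genes tested 3 were higher (0.11%) and 5 lower (0.183%) in KO mice by edgeR at an adjusted p under 0.05. An unadjusted p under 0.05 was reached by 399 genes. DESeq2 called 38 higher and 50 lower, and limma 6 higher and 2 lower. With at least 2 Cd4 UMIs a cell, 1 gene was called, and without WT mouse 4 there were 5, and the WT sums hold 25 cells.

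Ifitm1, an interferon-inducible membrane protein (chr7:140967221-140969825, plus strand, mm10), was at 0, 24.5 and 23.5 CPM in WT mice 2 to 4 and 409.6, 1339.6, 488 and 1115 CPM in KO mice 1 to 4. Every KO mouse lay far above every WT mouse, with 2 UMIs in all WT effector cells and UMIs in 6, 35, 14 and 14 cells of the KO mice (log2 5.56 ± 0.80 SE, edgeR adjusted p = 0.00435). Its neighbour Ifitm2 (chr7:140954837-140955987, minus strand) was at 97.3, 48.9 and 211 CPM against 465, 1071, 706 and 716 CPM (2.61 ± 0.44, adjusted p = 0.0164). The family has similar sequences, between which reads may be split. In the other T cells Ifitm1 was also higher in mean, at 801 ± 287 CPM in WT and 1444 ± 395 CPM in KO mice (n = 4 each), and the Ifitm1 call was lost with at least 2 Cd4 UMIs and without WT mouse 4. That of Ifitm2 was lost with at least 2 Cd4 UMIs, without WT mouse 2 and without WT mouse 3.

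Gm8797, a predicted gene (chr3:5750806-5751295), was at 32.4, 0 and 0 CPM in WT and 195, 207, 229 and 255 CPM in KO effector cells (log2 4.58 ± 0.72, edgeR adjusted p = 0.00867). The same step was seen in every gate, as in the other T cells (7.96 ± 2.17 against 182 ± 11.5 CPM) and the C1q-high cells (7.05 ± 1.02 against 181 ± 25.4 CPM, n = 4 each). The call was lost with at least 2 Cd4 UMIs and without WT mouse 4, and over 17 alternatives the log2 value ran from 3.90 to 8.96. It may share reads with related copies, and genotype and library cannot be told apart for it.

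Apoe, the apolipoprotein made in bulk by macrophages (chr7:19696109-19699188, minus strand), was at 389, 636 and 610.03 CPM in WT and 15.0, 29.9, 27.1 and 61.5 CPM in KO effector cells (log2 -4.07 ± 0.37, edgeR adjusted p = 4.73e-05). The groups were well apart. Other T cells had 378 ± 56.2 CPM in WT and 82.0 ± 86.2 CPM in KO mice, NK cells 398 ± 111 and 38.0 ± 28.9 CPM, and C1q-high cells 28280.4 ± 4473 and 2201 ± 1230.2 CPM (n = 4 each). The part of free macrophage RNA in the effector cells' value was not tested.

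Tnfrsf9 (4-1BB, a costimulatory receptor induced by antigen; chr4:150914562-150946102) was at 1493, 758 and 915 CPM in WT and 195, 142, 118 and 312 CPM in KO effector cells (log2 -2.48 ± 0.34, edgeR adjusted p = 0.00400). It was also lower in mean in KO Treg cells (886 ± 235 against 348 ± 97.1 CPM) and KO CD8 cells (307 ± 49.9 against 111 ± 52.2 CPM). Nt5e (CD73; chr9:88327197-88372092) was at 227, 318 and 704 CPM against 94.9, 19.5, 76.5 and 70.3 CPM (-2.86 ± 0.51, adjusted p = 0.0252), beside 272 ± 91.8 and 29.6 ± 21.5 CPM in Treg cells. Metrnl, a secreted meteorin-like protein, was at 357, 196 and 164 against 59.9, 37.7, 61.7 and 70.3 CPM (-2.07 ± 0.41, adjusted p = 0.0491). The survival gene Bcl2a1b, which has near-identical copies, was at 876, 831 and 774 against 329.7, 289.7, 363 and 426 CPM (-1.24 ± 0.23, adjusted p = 0.0319). No WT and KO mouse overlapped for these 4 genes. The Bcl2a1b call was lost in 8 of 17 alternatives, among them limma and each left-out mouse but KO mouse 4. That of Metrnl was lost in 6 of 10, that of Nt5e in 3 of 15 (limma, without WT mouse 4 and without KO mouse 4) and that of Tnfrsf9 in 1 of 17 (at least 2 Cd4 UMIs).

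**Figure D4:**
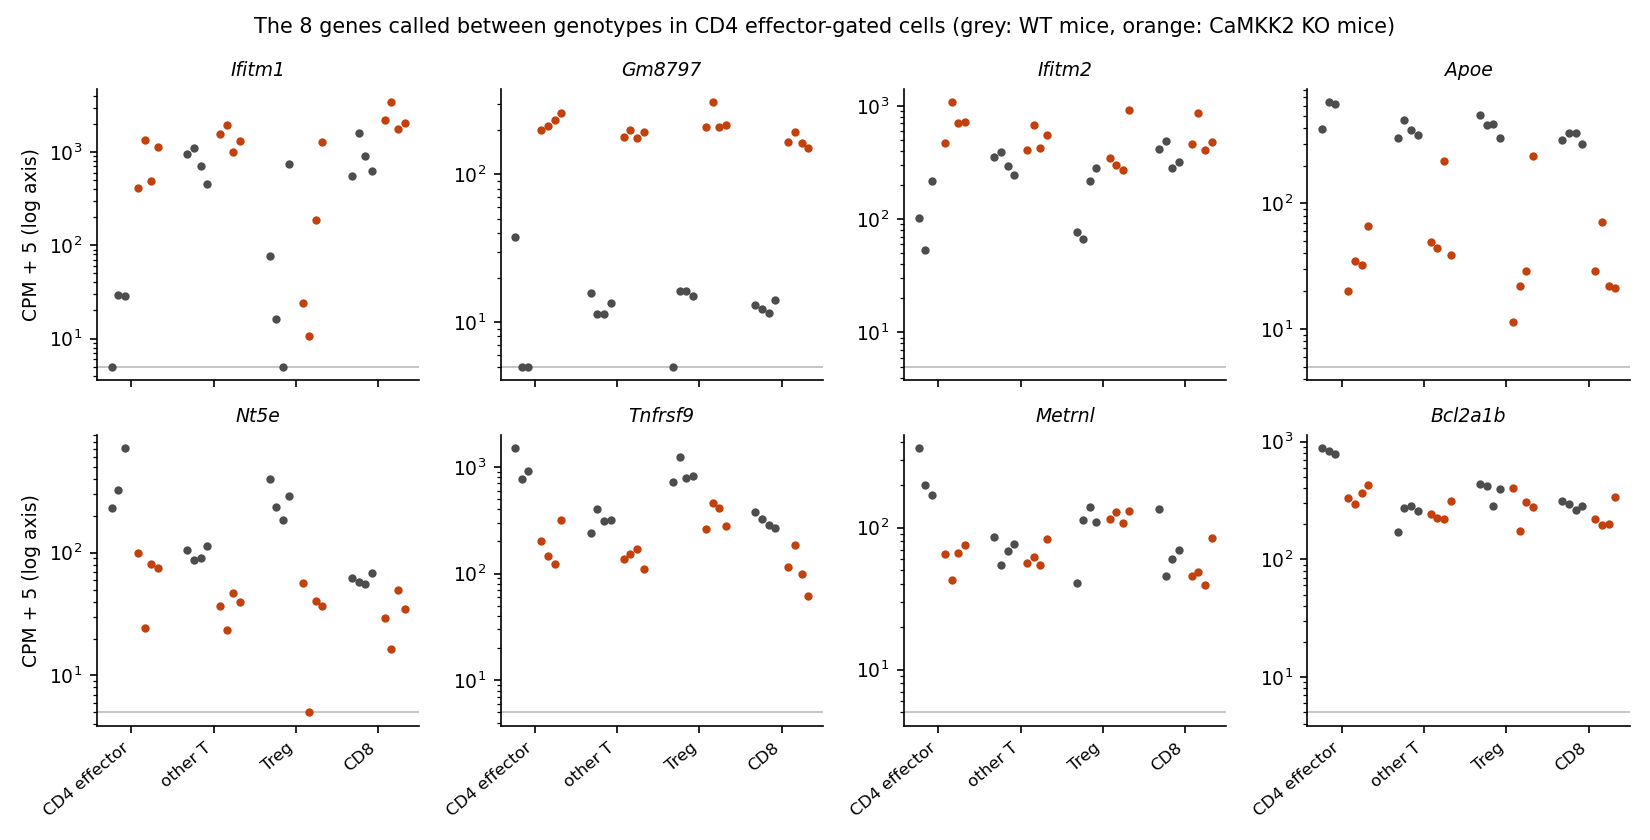
Levels (CPM + 5, log axis) of the 8 genes called between genotypes in effector cells, shown for effector, other T, Treg and CD8 cells with 1 point per mouse (3 WT and 4 KO mice for the effector cells, 4 and 4 for the rest). Apoe, Gm8797 and Tnfrsf9 are split by genotype in every class drawn, while Bcl2a1b and Metrnl are split in the effector cells and overlap in CD8 cells.

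The effector molecules named here did not pass edgeR's test between genotypes. The log2 fold change of Cd40lg was -0.40 ± 0.62 SE (edgeR adjusted p = 0.837), of Tnfsf8 0.22 ± 0.48 (adjusted p = 0.894), of Ifng -0.42 ± 0.66 (adjusted p = 0.842) and of Tbc1d4 0.83 ± 0.59 (adjusted p = 0.550). Without WT mouse 3, where 1 cell each held most of the Ifng and Cd40lg UMIs, Ifng turned to 2.37 (adjusted p = 0.0828) and Cd40lg to 1.27, and with limma to 1.15 and 0.84. Tnfsf8 turned to -0.20 without WT mouse 4. Ccl1 came nearer, at 6.15 ± 1.57 (adjusted p = 0.0870), with the uneven cells described above, and passed in 4 of 17 alternatives (DESeq2, limma, a minimum of 30 UMIs and without KO mouse 2; lowest adjusted p = 0.00117 by edgeR). Tnf, Csf2 and Il21 had no UMI in any WT effector cell and a UMI in every KO mouse: Tnf at 39.96, 66.3, 49.3 and 101 CPM (at least 2.43-fold higher against 3 UMIs over the WT cells, adjusted p = 0.139), Csf2 at 39.96, 44.2, 340.4 and 70.3 CPM and Il21 at 69.9, 32.5, 59.2 and 61.5 CPM. KO mouse 3 gave 138 of the 196 Csf2 UMIs, 65 of them from 1 cell.

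Among other receptors and factors, values short of the threshold were those of Maf, at 1897 ± 402 CPM in WT and 842 ± 387 CPM in KO mice (log2 -1.18, edgeR adjusted p = 0.0870), Ikzf2 (-1.39, adjusted p = 0.134), Cxcr6, at 311 ± 66.8 and 623 ± 86.6 CPM (1.02, adjusted p = 0.0953), and Pdcd1 (PD-1), at 148 ± 99.2 and 361 ± 81.7 CPM (1.196, adjusted p = 0.187). In the lists 1 of 11 costimulatory receptors (Tnfrsf9) and 1 of 8 Treg genes (Nt5e) were lower in KO cells. The 16 Th1, 7 TNF ligand, 9 cytokine, 8 cytolysis, 6 cell cycle and 12 interferon genes tested held no call. Their medians, in that order, were 0.31, 0.22, -0.29, 1.41, 2.18 and -0.20, beside -0.02 for all genes. The minimum for testing applied to UMIs summed over all members. These sums held 30817 to 42621 UMIs per WT mouse and 200206 to 769655 per KO mouse. A gene could therefore pass on KO UMIs alone, as Tnf did, which favors positive values among sparse genes. The medians thus cannot decide whether a list differed between genotypes.

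The shares of effector cells with a UMI were compared at equal depth, with cells thinned to 2000 UMIs and shallower cells left out (23 of 25 WT and 172 of 179 KO cells kept), in 3 WT and 4 KO mice, where an exact permutation test cannot go below p = 0.0571. Ifng was found in 21.3% ± 4.24 of WT and 36.6% ± 14.5 of KO cells (SD; exact permutation p = 0.0571, 0.143 adjusted over 5 genes), Tnf in 0% and 15.3% ± 10.9 (p = 0.0571, adjusted 0.143) and Tnfsf8 in 9.26% and 16.2% (p = 0.286). Cd40lg was found in 11.6% ± 11.1 and 9.48% ± 2.45 (exact p = 0.629), a difference that turned without thinning, to 14.8% and 30.7%. Il2 was found in 3.70% and 0.781% (exact p = 0.857). Unthinned, Ifng stood at 19.6% and 53.4% and Tnf at 0% and 27.9%.

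**Figure D5:**
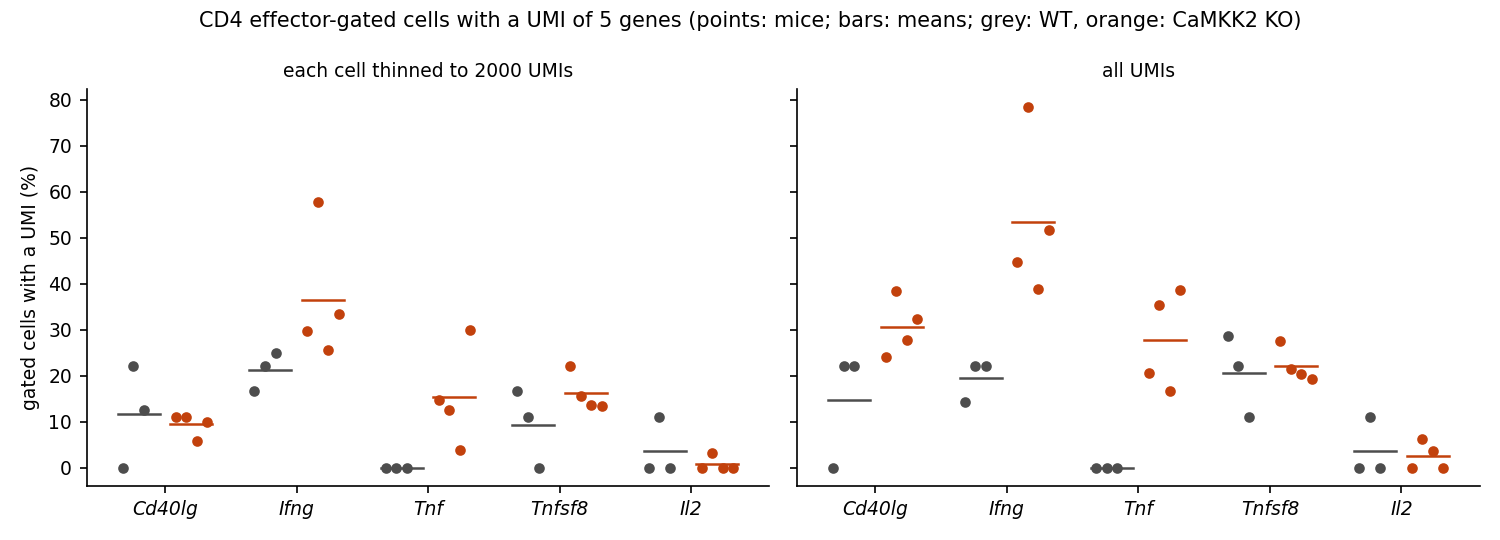
Percent of CD4 effector cells with a UMI of 5 genes, 1 point per mouse, after thinning to 2000 UMIs, shallower cells left out, and with all UMIs. The Cd40lg means are 11.6% in WT and 9.48% in KO mice thinned, and 14.8% and 30.7% with all UMIs.

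Whether a genotype difference in the effector cells differed from that in the other T cells was tested as an interaction. Of 2727 genes 10 had a more positive difference in effector cells (0.367%) and 9 a more negative one (0.33%). The split was 22 and 6 with TMM and 69 and 11 with DESeq2. The macrophage list in the comparator differed between genotypes, at a mean of 2112 CPM in the other T cells of the 3 WT mice and 6442 CPM in those of the 4 KO mice, beside 2329 and 2232 CPM in the effector cells. None of its 8 tested genes was called (median interaction log2 -1.55), and its part in the interaction results was not tested. Mean Maf levels were 1897 CPM in WT and 842 CPM in KO effector cells, and 212 and 294 CPM in the other T cells of the same mice (interaction log2 -1.71, edgeR adjusted p = 0.00634). Nrgn was at 23.8 and 265 CPM in effector and 136 and 65.0 CPM in other T cells (4.30, adjusted p = 0.00634). Igfbp7, a secreted binding protein for growth factors, was at 26.5 and 249.9 CPM against 54.9 and 34.9 CPM (3.93, adjusted p = 0.0161). Vsir (VISTA), an inhibitory ligand of the B7 family, was at 386 and 168 against 98.2 and 112 CPM (-1.44, adjusted p = 0.0459). The call of Vsir was lost in 11 of 16 alternatives, that of Igfbp7 in 6, that of Nrgn in 5 and that of Maf in 4, at least 2 Cd4 UMIs and the removal of very deep cells among them for each. The number called was 0 with at least 2 Cd4 UMIs, 1 without WT mouse 2 and 2 without WT mouse 4.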

How the data were processed

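Single-cell 3' libraries of live CD45+ cells and their hashtag libraries were made from 4 mice per genotype. The authors demultiplexed with bcl2fastq 2.20 and made raw UMI count matrices with Cell Ranger 4.0.0 and STAR 2.7.5c on mm10; the deposited values are whole UMI counts per gene and barcode, not normalized, and hashtag counts per barcode. Barcodes were given to mice with HTODemux (Seurat 5.3.0, quantile 0.99), which also set aside barcodes with 2 or more hashtags; no other doublet caller was run, and doublets within a mouse remain. The members, the gate and the gene lists were chosen with earlier results of these data known.

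UMIs were summed per mouse and gate for mice with at least 5 cells. The 7 mice used had 30817 to 769655 member UMIs, and WT mouse 1, with no member, was dropped. Sums were tested with edgeR 4.0.16 in R 4.3.3 (quasi-likelihood, library size = total UMIs, genes with at least 100 UMIs, Benjamini-Hochberg at 0.05), with mouse as a block where classes of the same mouse were compared. The mouse pairs the classes because both sums came from the same animal. Shares were tested by two-sided exact permutation over mice (scipy 1.17.1). The script was tested on simulated data. Named genes were the markers, Tnf, Camkk2, the 10 largest changes per direction among calls alike in every mouse or not overlapping, and list members by largest change or level; others, such as Nrgn, Nt5e and Klrd1, were added after their values were seen. Alternatives were TMM, DESeq2 1.42.0, limma 3.58.1 on log2(mean CPM + 10), minimums of 30 and 200 UMIs, 1 or 10 cells per mouse, other gate limits, outlying or very deep cells removed, another hashtag rule, no block, and each mouse left out. Positions are from GENCODE M21. Values of a few list genes are not reported here.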

Additional observations from a re-analysis of the deposited data

Results flagged for a closer look

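WT mouse 1 was flagged for its effector share, 0% of its 44 T cells against 3.41%, 3.67% and 3.85% in the other WT mice. Its gap to the nearest mouse passed Dixon's limit for 4 values, which chance passes in about 1 of 20 groups. That limit takes the shares as equally precise, whereas the other WT mice had 205, 245 and 234 T cells. The exact interval of WT mouse 1 ends at 8.04% and covers the shares of the other WT mice. Dixon's limit therefore cannot decide whether this mouse differed from them beyond counting error.

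The remaining results had a genotype difference in the effector cells that differed from the one in the other T cells of the same mice by a tested interaction (edgeR). A more positive difference, on the log2 scale, was fitted for Csf2 (13.9), Ccl1 (10.3), Ifitm1 (4.46), Nrgn (4.30), Igfbp7 (3.93), Unc119 (3.74), Nabp1 (1.98), Rpl24 (0.74), Rps15a (0.70) and Eef1a1 (0.55). A more negative one was fitted for Ctsz (-2.21), Maf (-1.71), Zfand5 (-1.67), Gna13 (-1.60), Vsir (-1.44), Fth1 (-1.19), Srgn (-1.16), Bcl2a1b (-1.11) and Malat1 (-0.52). The Csf2 value is no bound, since WT effector cells had no Csf2 UMI, and the Ccl1 value rests on few cells. Macrophage genes in the other T cells summed to 2112 CPM in WT and 6442 CPM in KO mice, and their part in these values was not tested.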

How the results depend on the processing

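The share of T cells in the effector gate stayed higher in KO mice in all alternatives, by 11.6 to 17.1 percentage points, or 2.42 of all barcodes, and by 12.3 to 16.7 with each mouse left out, where p = 0.0571 is the smallest the exact permutation test allows. Calls between genotypes numbered 8, against 1 with at least 2 Cd4 UMIs, 88 with DESeq2, 24 and 5 with minimums of 30 and 200 UMIs, and 5 to 11 with a mouse left out. Interaction calls numbered 19, against 0 with at least 2 Cd4 UMIs, 12 with C1q under 10, 7 without outlying cells, 3 without very deep cells, 80 with DESeq2, 30 with 200 UMIs and 1 to 15 with a mouse left out. Against other T cells 760 calls became 411 with DESeq2, 435 with 10 cells per mouse, 319 with limma and 494 to 756 with a mouse left out. Against Treg cells 146 became 250 with 30 UMIs, 52 with limma and 65 to 175 with a mouse left out, and against CD8 cells 1198 became 767 with limma and 736 to 1104. Without the replicate block of mouse, 553, 122 and 1155 genes were called against other T, Treg and CD8 cells. The genotype difference turned for Cd40lg detection without thinning (15.8 percentage points) and without WT mouse 3 (3.23), for Il2 detection without WT mouse 3 (0.781), and in log2 for Cd40lg with limma (0.84) and without WT mouse 3 (-0.87 to 1.27 with each mouse left out), Tnfsf8 without WT mouse 4 (-0.20 to 0.95), and Ifng with limma (1.15) and without WT mouse 3 (-0.97 to 2.37). With a mouse left out, the detection difference spanned -7.88 to 3.23 for Cd40lg, 8.19 to 19.0 for Ifng, 10.4 to 19.1 for Tnf, 2.34 to 10.7 for Tnfsf8 and -4.77 to 0.781 for Il2. The causes were not tested. A minimum of 10 cells per mouse left no WT mouse, so genotype and interaction could not be fitted with it. The 25 WT effector cells limit every genotype difference.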
